A study of Homo sapiens with 12 samples.

Results

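The interferon beta gene IFNB1 and 5 genes of transcription factors around it, IRF1, IRF7, IRF8, IRF9 and STAT2, were followed through the response of THP-1 cells to lipopolysaccharide (LPS). These genes were chosen by name, and all 6 of 6 were found among the 3281 genes in the authors' lists of LPS-changed genes of 1 or both genotypes. THP-1 cells come from a human monocytic leukaemia and become macrophage-like when given the phorbol ester PMA. Per the labels' protocols, all cells received PMA at 25 ng/ml for 72 hr, followed by 4 days of rest without it. The 4 groups of 3 libraries were wild-type (WT) cells at 0 hr, without LPS, WT cells after 3 hr with LPS at 10 ng/ml, and the same 2 times in S80A cells. S80A cells carry an altered NFKB1, whose product, the NF-κB subunit p50, has alanine at residue 80 in place of serine, and the study asked how phosphorylation of that serine bears on LPS-induced transcription. The labels do not say how the S80A line was made or whether it is 1 clone, so the edit and other differences between the lines cannot be told apart.

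LPS is a component of the outer membrane of Gram-negative bacteria. Its receptor TLR4 signals through MYD88 to NF-κB and, from endosomes, through TICAM1 (TRIF) and the kinases TBK1 and IKBKE to IRF3, and NF-κB, IRF3 and ATF2/JUN together switch on IFNB1. Secreted interferon beta acts on its receptor IFNAR1/IFNAR2, where the Janus kinases JAK1 and TYK2 phosphorylate STAT proteins, and STAT2 enters with IRF9 into the factor ISGF3. ISGF3 binds interferon-stimulated response elements and induces antiviral genes, among them IRF7, IRF9 and STAT2 themselves. IRF1 is an NF-κB and interferon target that acts early, and IRF8 is a lineage factor of monocytes and macrophages that binds DNA with partners such as SPI1 (PU.1), BATF3 and other IRF proteins.

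The sequences just upstream of the RefSeq starts of IFNB1, IRF1 and IRF9 show where letters known from NF-κB, STAT and IRF binding sites lie. These 3 sequences were printed because their genes stand for the NF-κB and the ISGF3 side of the pathway. They are the bases before the RefSeq start of each gene (build GRCh38.p14), read 5′ to 3′ on the strand of the gene, with matches in capitals.
IFNB1, chr9:21077943-21078062, minus strand: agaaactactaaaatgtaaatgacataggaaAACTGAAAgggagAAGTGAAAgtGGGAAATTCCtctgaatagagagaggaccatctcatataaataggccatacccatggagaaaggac
IRF1, chr5:132490774-132490923, minus strand: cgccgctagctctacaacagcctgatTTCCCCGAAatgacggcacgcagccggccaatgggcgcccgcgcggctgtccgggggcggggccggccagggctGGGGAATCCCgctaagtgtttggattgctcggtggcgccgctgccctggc
IRF9, chr14:24161211-24161240, plus strand: aaggccctccctggaggagAACTGAAActt
Upstream of IFNB1, capitals mark 2 matches to the IRF half-site AANNGAAA, at 89 to 82 and 76 to 69 bases before the start, and 1 match to the κB consensus at 66 to 57 bases. The IRF1 sequence holds a κB consensus match, found on both strands, at 50 to 41 bases and a match to the STAT palindrome TTCNNNGAA at 124 to 116 bases. The short stretch of IRF9 ends 25 bases before its start and holds AANNGAAA at 35 to 28 bases.

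Searched on both strands over the 250 bases before each start, the κB consensus was found in 9.96% of 35116 RefSeq promoter windows, AANNGAAA in 20.3% and TTCNNNGAA in 6.57%. Among 37 windows of the classical ISGF3 target genes, 32 held AANNGAAA, 7 the κB consensus and 5 TTCNNNGAA. TTCNNNGAA was also found at 218 to 210 bases before the start of IFNB1 and at 63 to 55 bases before that of IRF9. The window of STAT2 held none of the 3 motifs, and that of IRF9 held no κB consensus. IRF7 was not matched in the promoter table. No sequence of IRF8 is printed. The starts of its 2 windows lie 141 and 326 bases from the nearest start in GENCODE release 29, against 8 to 25 bases for the other members found. AANNGAAA lay at 116 to 109 and 21 to 14 bases before the first of these IRF8 starts, and at 206 to 199 before the second. A match is a description of the letters, and whether these stretches were bound in these cells was not measured.

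Expression was measured by RNA-seq and is given in scaled reads, the read count of a gene divided by 1 size factor per library. Reads on the 3281 listed genes ranged from 1924562 to 5789918 per library. They leave out the genes in neither list, so they are not the depth of the libraries. Separate cultures are not stated for the replicates, so p-values measure the spread between these libraries, which may be technical. At 3 hr replicate 1 stood apart from replicates 2 and 3 in both genotypes. The LPS response differed between genotypes for 70 of 1562 genes (42 higher and 28 lower in S80A), for 187 without S80A replicate 1 at both times, and for 27 higher and 13 lower without WT replicate 1. Of 11 monocyte and macrophage markers, 4 were among the listed genes (CD14, CD163, FCGR3A and MERTK), with a summed level of 4593 to 6714 scaled reads in WT and 5151 to 9912 in S80A libraries at 0 hr, and of 1797 to 2566 and 2480.3 to 3030 at 3 hr. MERTK, a receptor for apoptotic cells, was the only one of the 4 called, against 20.1% of all listed genes called higher at 0 hr and 29.2% at 3 hr. It was higher in S80A by 1.22 ± 0.17 log2 at 0 hr (limma adjusted p = 0.00814) and by 2.63 ± 0.22 at 3 hr (0.000785). CD163, a haemoglobin scavenger receptor, and FCGR3A, an Fc receptor, lay the other way at 0 hr with no overlap of replicates, at -1.11 ± 0.32 log2 (limma adjusted p = 0.0509) and -1.16 ± 0.45 (0.107), so the sum holds opposite differences. Replicates did not overlap for 17.5% of all listed genes with S80A below WT at 0 hr. Both CD163 and FCGR3A were listed in WT only, where they fell with LPS, which favours a high WT level at 0 hr. Of 19 markers of lymphoid, endothelial, epithelial, stromal and erythroid cells, only CD79B was listed, at 4.7 to 45.8 scaled reads. In bulk RNA, fewer cells expressing a gene and less RNA per cell cannot be told apart.

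IFNB1, the ligand, went from 1 read per group to 539 or more in both genotypes. It is a gene of 1 exon on chromosome 9 (21077105 to 21077963, minus strand, GRCh38, GENCODE release 29). In WT cells the 3 replicates had 0, 0 and 0.807 scaled reads at 0 hr (1 read over the group) and 136, 331 and 310.5 at 3 hr (259 ± 107, SD, n = 3). S80A cells had 0, 0 and 1.05 scaled reads at 0 hr (1 read) and 172, 210.5 and 243 at 3 hr (208.5 ± 36.0, SD, n = 3). The S80A values after LPS lay within the range of the WT values, which was set by the low WT replicate 1. The ratio of reads per size factor between 3 hr and 0 hr was 959 in WT, with a 95% counting interval of 172 to 37949, and 674 in S80A, with an interval of 120.5 to 26677. At 0 hr both genotypes were under a floor of 3 reads over the group, so no genotype ratio is given. In the authors' deposited tables IFNB1 had log2 fold changes of 7.56 in WT and 7.12 in S80A, rank 29 of 2335 and rank 33 of 2508 by size.

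All 5 members listed in the WT table and all 6 in the S80A table rose with LPS. By the authors' deposited results, 8.24% of the 17486 genes tested were listed as rising in WT and 8.67% in S80A. Membership of the tables already requires an adjusted p-value under 0.01 and a change of more than 1 log2, so these rises describe how the genes were listed.

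IRF1 had the largest rise of the 5 factors. It is on chromosome 5 (132481609 to 132490798, minus strand). WT replicates had 344, 569 and 432 scaled reads at 0 hr and 10202, 10788 and 9969 at 3 hr. S80A replicates had 413, 921 and 651 at 0 hr and 11759, 16522 and 10498 at 3 hr. The groups of a genotype did not overlap, and at both times the S80A range overlapped that of WT. The means rose 23.0-fold in WT (448 ± 113 to 10320 ± 422, SD, n = 3) and 19.5-fold in S80A (662 ± 254 to 12926 ± 3177), and the authors' deposited tables give 4.42 and 4.19 log2. IRF1 shares its locus with the opposite-strand genes C5orf56 and AC116366.3. The kit marks strand, but the strand setting of the counting is not given in the sources used here, so reads of these genes may be included.

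IRF7, the factor that amplifies interferon alpha and beta production, rose in both genotypes. It is on chromosome 11 (612553 to 615999, minus strand). WT replicates had 308, 851 and 496 scaled reads at 0 hr and 3275, 5344 and 4946 at 3 hr. In S80A cells they had 299.8, 470.0 and 170.0 at 0 hr and 2227, 2996 and 1711 at 3 hr. The 2 genotypes overlapped at 0 hr and did not overlap at 3 hr, when the lowest WT replicate was above the highest S80A replicate. The means rose 8.19-fold in WT and 7.38-fold in S80A, and the authors' deposited tables give 2.90 and 2.75 log2.

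IRF8 differed from the other members in its level before LPS. The gene is on chromosome 16 (85898803 to 85922609, plus strand). WT replicates had 5169, 5008 and 4625 scaled reads at 0 hr and 6682, 8176 and 7323 at 3 hr. S80A replicates had 2016, 783 and 541 at 0 hr and 5934, 6551 and 5004 at 3 hr. Every S80A replicate was below every WT replicate at both times, with a wide gap at 0 hr and a narrow one at 3 hr. At 0 hr the S80A replicates were also far apart, since replicate 1 had more than 2 times the level of either of the others.

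The mean of IRF8 went from 4934 ± 280 to 7394 ± 749.5 scaled reads in WT (SD, n = 3) and from 1113 ± 791 to 5830 ± 778 in S80A, 5.24-fold. The authors' deposited S80A table gives 2.30 log2, and the gene is not in the WT table. In WT the rise on the log2(scaled reads + 1) scale was 0.58 ± 0.14 (SE, 95% interval 0.24 to 0.92, limma adjusted p = 0.00666, all 3 libraries above those at 0 hr), which is under the 1 log2 that the authors' list requires. By this test 52.9% of the 3281 listed genes rose in WT, since the lists hold LPS-changed genes.

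The STAT2 and IRF9 genes, which encode parts of ISGF3, rose in both genotypes. STAT2 is on chromosome 12 (56341597 to 56360155, minus strand). WT replicates had 1024, 1974 and 1537 scaled reads of STAT2 at 0 hr and 5291, 10091 and 8462 at 3 hr. S80A replicates had 1247, 1806 and 968 at 0 hr and 5703, 6212 and 3771 at 3 hr. The genotypes overlapped at both times, with 2 of 3 WT replicates above all S80A replicates at 3 hr. The means rose 5.26-fold in WT and 3.90-fold in S80A, against authors' deposited log2 fold changes of 2.32 and 1.91.

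IRF9, the DNA-binding part of ISGF3, is on chromosome 14 (24161053 to 24166565, plus strand). WT replicates had 596, 804 and 604 scaled reads at 0 hr and 1824, 2347 and 2323 at 3 hr. S80A replicates had 454, 782 and 356 at 0 hr and 1853, 1766 and 1589 at 3 hr. The means rose 3.24-fold in WT and 3.27-fold in S80A, the smallest rise among the members listed in both tables, with 1.66 and 1.67 log2 in the authors' deposited tables. The whole of IRF9 lies within the same-strand gene AL136295.5, so its reads may be shared or lost in counting.

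**Figure D1:**
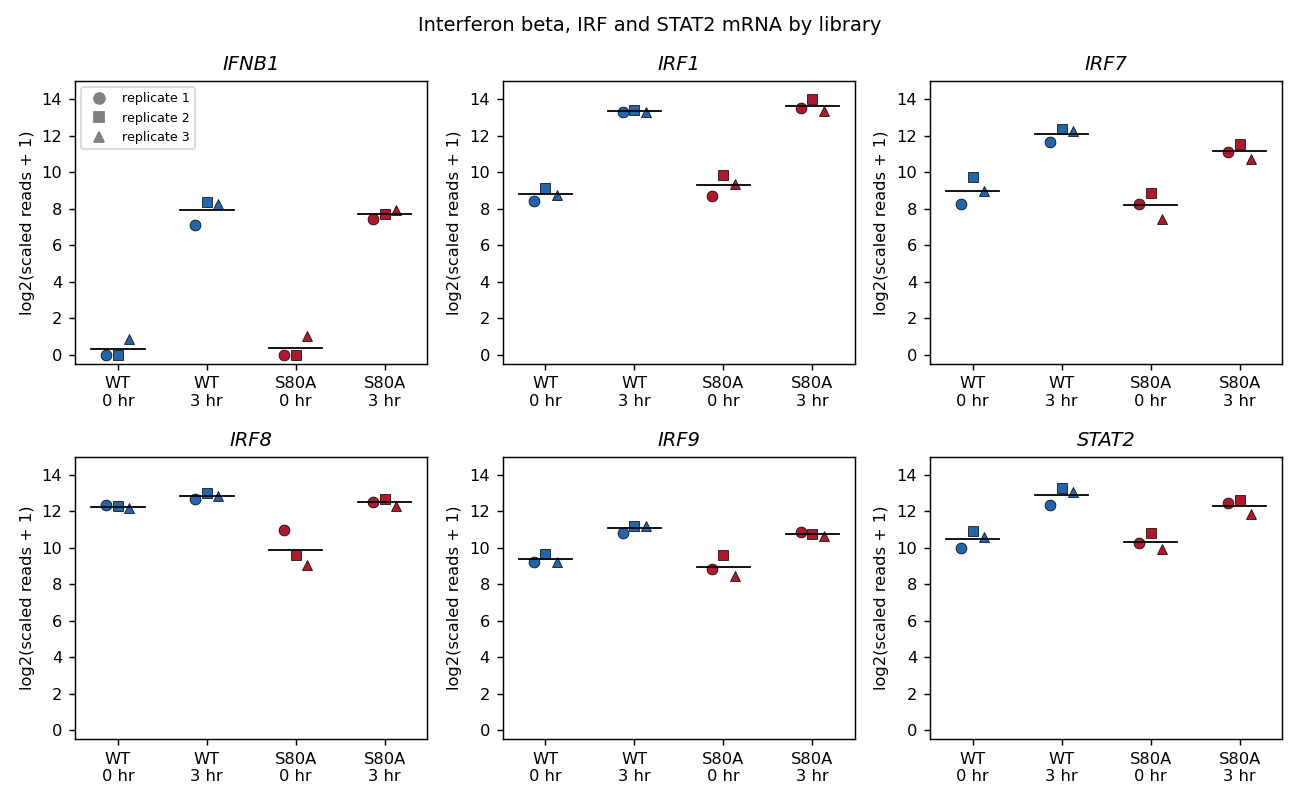
Expression of the 6 genes as log2(scaled reads + 1), by group (WT blue, S80A red, 0 hr and 3 hr of LPS). Each point is 1 library, its shape gives the replicate, and the line is the mean of the 3. All genes are higher at 3 hr, and IRF8 in S80A at 0 hr, at 541 to 2016 scaled reads, lies far below WT at 4625 to 5169.

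Levels of different genes were compared per kilobase of the main transcript. Before LPS, WT cells held most IRF8 (1628 ± 92.4 scaled reads per kilobase, SD, n = 3), followed by STAT2 (464 ± 146), IRF9 (363 ± 64.2), IRF7 (269 ± 134), IRF1 (125 ± 31.6) and IFNB1 (0.313 ± 0.542). Only IRF8 and IFNB1 stood clear of their neighbours in this order, and the ranges of STAT2, IRF9 and IRF7 overlapped. In S80A cells at 0 hr, STAT2 (411 ± 131), IRF8 (367 ± 261), IRF9 (289 ± 121), IRF1 (185 ± 71.0) and IRF7 (153 ± 73.4) followed in this order. The range of STAT2 (296.9 to 554) lay above those of IRF1 and IRF7, and every other pair of these 5 overlapped. After LPS IRF1 had the highest mean in both genotypes, at 2883 ± 118 in WT, where its range overlapped that of STAT2, and 3612 ± 888 in S80A, above the ranges of all others. In WT it was followed by IRF8 (2440 ± 247), STAT2 (2439 ± 749) and IRF7 (2205 ± 535), whose ranges overlapped, and then by IRF9 (1178 ± 161) and IFNB1 (302 ± 125). In S80A the order after IRF1 was IRF8 (1924 ± 257), STAT2 (1604 ± 395), IRF7 (1127 ± 315), IRF9 (944 ± 73.4) and IFNB1 (243 ± 41.9), where neighbours from IRF8 to IRF9 overlapped. Counting all exons of the basic annotation as length lowers IRF8 to 1763 per kilobase in WT at 3 hr, below STAT2 and IRF7, and leaves it first in WT at 0 hr. In S80A it puts IRF8 below STAT2 at 3 hr (1390.0 against 1541) and below STAT2 and IRF9 at 0 hr (265, against 395 and 270.0), with overlapping ranges.

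Whether the LPS response itself differed between genotypes was tested with the limma interaction term over the 1562 genes in both tables, with Benjamini-Hochberg adjustment and a threshold of 0.05, by which 4.48% of genes were called. None of the 5 members in both tables was called. The largest difference was that of STAT2, at -0.42 ± 0.49 log2 (S80A minus WT, SE, 95% interval -1.49 to 0.66, adjusted p = 0.770). IFNB1 differed by -0.28 ± 0.57 (interval -1.53 to 0.96, adjusted p = 0.877), IRF1 by -0.22 ± 0.43 (-1.16 to 0.73, 0.876), IRF7 by -0.16 ± 0.61 (-1.50 to 1.18, 0.938) and IRF9 by 0.09 ± 0.39 (-0.77 to 0.95, 0.951). These intervals are wide, and differences within them could not be told from 0 with 3 libraries per group. By edgeR and DESeq2 on the recovered reads none of the 5 was called either, and none had an unadjusted limma p under 0.05.

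IRF8 could be tested only among all 3281 listed genes, of which 14.1% were called. Its LPS response was larger in S80A by 2.03 ± 0.54 log2 (SE, 95% interval 0.85 to 3.21, limma adjusted p = 0.0307), with the 3 hr libraries all above the 0 hr libraries in each genotype. A gene listed in 1 genotype only tends to show such a difference by the way it was listed. The call was lost in 8 of 12 fits that left out 1 library, with 1.62 to 2.57 log2 and adjusted p-values up to 0.0737. edgeR (adjusted p = 0.0389) and DESeq2 (0.00902) kept it. Without S80A replicate 1 at both times the difference was 2.56 log2 (adjusted p = 0.00083).

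Before LPS, IRF8 was the only member called between genotypes, against a background of 10.6% of the 3281 genes called lower and 20.1% called higher in S80A. IRF8 was listed in S80A only, where it rose with LPS, which favours a low S80A level at 0 hr. It was lower in S80A by 2.38 log2 (limma, -2.38 ± 0.50, SE, 95% interval -3.63 to -1.13, adjusted p = 0.0211), and the WT mean was 4.43 times the S80A mean. Its replicates were also the only ones among the 6 genes that did not overlap, as for 17.5% of the listed genes with S80A below WT. The call was lost when WT replicate 1, 2 or 3 was left out (adjusted p = 0.0673, 0.0691 and 0.0683) or S80A replicate 2 (0.0774), with -1.97 to -2.92 log2 over these fits and those without S80A replicate 1 or 3. Without S80A replicate 1, whose level was nearest to WT, it was -2.92 log2 (adjusted p = 0.0024).

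The other members differed at 0 hr by less than the test could call. IRF7 differed by -0.81 ± 0.52 log2 (S80A minus WT, interval -2.13 to 0.50, limma adjusted p = 0.283), IRF9 by -0.40 ± 0.33 (adjusted p = 0.389), STAT2 by -0.17 ± 0.34 (0.729) and IRF1 by 0.52 ± 0.35 (0.307). The median over all listed genes was 0.19 log2 at 0 hr and 0.19 at 3 hr. TMM scaling moved these medians by -0.19 and -0.21, and no member's direction changed with it.

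After 3 hr of LPS, IRF7 was the only member called, with 17.7% of the listed genes called lower in S80A at this time and 29.2% higher. It was lower in S80A by 0.97 log2 (limma, -0.97 ± 0.30, SE, 95% interval -1.69 to -0.26, adjusted p = 0.0346), a WT mean 1.96 times that of S80A (4522 ± 1098 against 2311 ± 647 scaled reads, SD, n = 3). A count of 1 of 6 is near this background. The call was lost without S80A replicate 1 (adjusted p = 0.0583), WT replicate 2 (0.116), WT replicate 3 (0.114) or S80A replicate 3 (0.0960), and in a fit of all 12 libraries (0.0804). edgeR (0.0192) and DESeq2 (0.00527) on the recovered reads kept it.

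At 3 hr IRF8 stood at -0.35 ± 0.20 log2 (interval -0.83 to 0.14, limma adjusted p = 0.201), with a WT mean 1.27 times that of S80A. Its replicates and those of IRF7 did not overlap between genotypes, as for 23.3% of listed genes with S80A below WT. STAT2 differed by -0.59 ± 0.32 (-1.35 to 0.18, adjusted p = 0.176), IRF9 by -0.31 ± 0.20 (0.240), IFNB1 by -0.22 ± 0.38 (-1.12 to 0.67, 0.652) and IRF1 by 0.30 ± 0.23 (-0.25 to 0.85, 0.323).

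**Figure D2:**
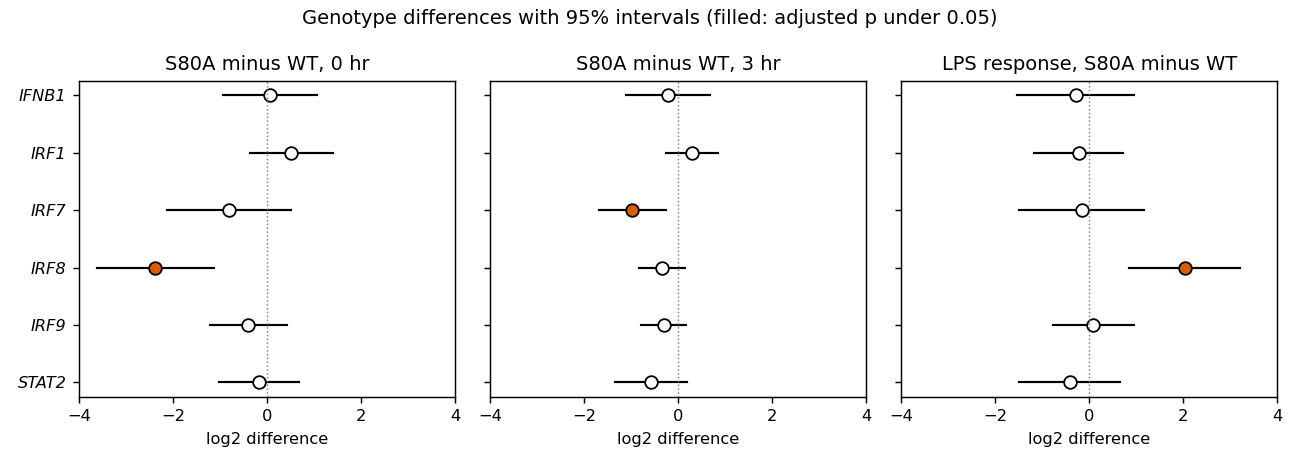
Differences between S80A and WT for the 6 genes on the log2(scaled reads + 1) scale, at 0 hr, at 3 hr and in the LPS response, with 95% limma intervals (filled points have an adjusted p under 0.05). IRF8 at 0 hr (-2.38), IRF7 at 3 hr (-0.97) and IRF8 in the LPS response (2.03, fitted over all listed genes) are filled, and the intervals of the other points include 0.

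Within groups, the lowest library was often the same for IRF7, IRF9, STAT2 and the ISGF3 target genes. Replicate 1 was the lowest WT library at 0 hr for IRF1, IRF7, IRF9 and STAT2 and for 28 of 30 listed ISGF3 targets, against 42.4% of all listed genes with a group mean of at least 10 scaled reads. At 3 hr it was the lowest WT library for IFNB1, IRF7, IRF8, IRF9 and STAT2 and for 30 of 30 targets, against 44.8% of all. In S80A at 3 hr replicate 3 was the lowest for every member except IFNB1 and for 29 of 30 targets, against 38.7%. In S80A at 0 hr the targets were divided, with replicate 3 the lowest for 20 of 30 and for IRF7, IRF8, IRF9 and STAT2, against 37.4% of all, and replicate 1 the lowest for 10 of 30 and for IRF1, against 43.0%. The summed level of the 30 targets was 213446, 316502 and 299882 scaled reads in WT replicates 1, 2 and 3 at 3 hr, and 237753, 238807 and 124003 in S80A. At 0 hr it was 19886, 47055 and 30525 in WT and 16483, 28591 and 14281 in S80A. What set these libraries apart was not tested.

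**Figure D3:**
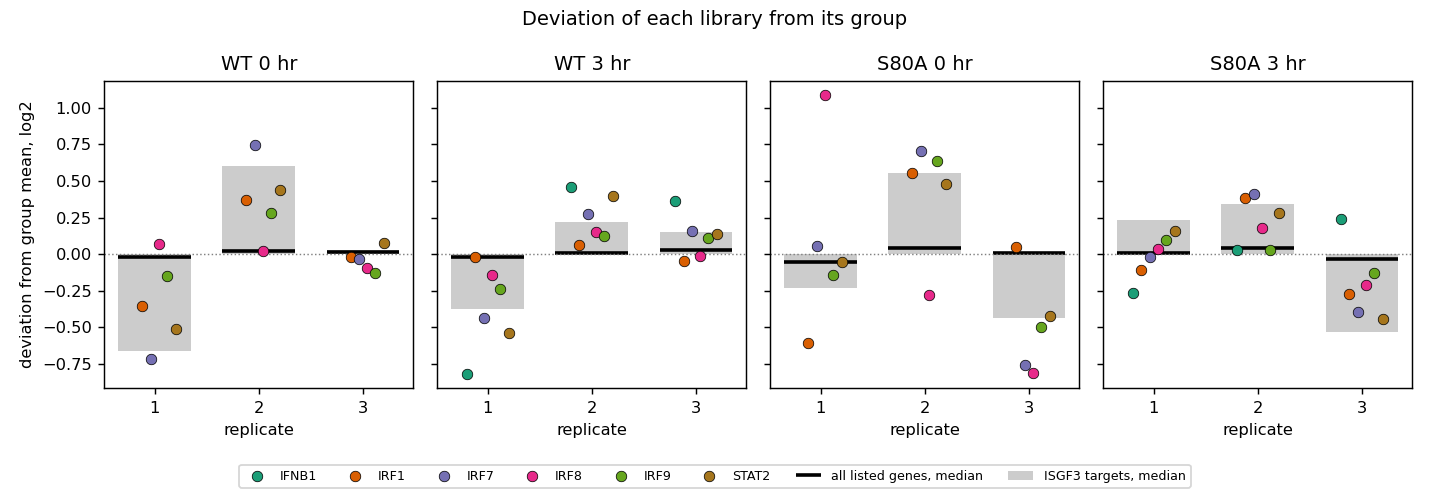
Deviation of each library from the mean of its group, on the log2(scaled reads + 1) scale, for the member genes (points; IFNB1 only at 3 hr), the median of 30 ISGF3 targets (grey bars) and the median of all listed genes (black lines). WT replicate 1 and S80A replicate 3 are low for the targets and for STAT2 at both times, by 0.38 to 0.66 log2 for the targets, with the median of all genes near 0.

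The genes most like each member over the 12 libraries were found by the root mean square difference of log2(scaled reads + 1), each gene centred on its own mean, among 2517 genes with a mean of at least 50 scaled reads. The profiles share libraries and scaling, and the values are descriptions. IFNB1 was nearest to TNF (0.402 log2), HCAR3 (0.434) and HCAR2 (0.533), and IRF1 to BATF2 (0.248), CSRNP1 (0.253) and MSC (0.303). The nearest to IRF7 were RSAD2 (0.271), OAS2 (0.285) and PARP14 (0.354), the first 2 of which are antiviral ISGF3 targets. STAT2 was nearest to OAS3 (0.178), DHX58 (0.205) and MYD88 (0.252), and IRF9 to ADAR (0.179), LSS (0.185) and MYD88 (0.197). IRF8 was nearest to AK4 (0.359), NOD2 (0.394) and OSR2 (0.427), which had 54.2, 246 and 114 scaled reads in WT at 0 hr and 11.6, 60.9 and 21.2 in S80A. Among the members, IRF9 and STAT2 were closest to each other (0.335), followed by IRF7 and STAT2 (0.535).

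Of 20 other interferon ligand genes only IFNL1, an interferon lambda, was listed. It had no reads at 0 hr in either genotype and 5.87, 9.34 and 6.42 scaled reads at 3 hr in WT (20 reads) against 12.3, 20.7 and 12.0 in S80A (39 reads). Its S80A replicates were all above the WT replicates (0.94 ± 0.29 log2, limma adjusted p = 0.0336). The same held for 35.7% of all listed genes at 3 hr, and 29.2% were called higher in S80A.

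Among 9 interferon receptor chains and Janus kinases, 5 were listed, and 4 of them were higher in S80A after LPS, against 29.2% of all listed genes. Of the 4, IFNAR2 and JAK1 were listed in S80A only, where they rose with LPS, which favours a high S80A level at 3 hr. IFNGR2, a chain of the interferon gamma receptor, had 8317, 6953 and 7469.5 scaled reads in WT and 20760.4, 18681 and 19531 in S80A at 3 hr (1.38 ± 0.18 log2, limma adjusted p = 0.00201). IFNAR2, the chain that binds interferon beta most tightly, differed by 1.04 ± 0.23 (0.0103), IFNGR1 by 1.00 ± 0.21 (0.0083) and JAK1 by 1.36 ± 0.24 (0.00455). At 0 hr IFNGR1 (0.84, adjusted p = 0.0126), IFNGR2 (0.74, 0.0173) and JAK1 (0.53, 0.0391) were higher in S80A, 3 of 5 against 20.1% of all, and 1 of the 5 under TMM scaling. JAK2 differed by -0.57 ± 0.24 at 3 hr (adjusted p = 0.0955). IFNAR1 and TYK2 were not listed.

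Of 10 other IRF and STAT genes, IRF2, IRF4 and STAT5A were listed, and all 3 rose in both genotypes. IRF4, a factor of lymphoid and alternatively activated myeloid cells, had 12.9, 14.5 and 22.5 scaled reads in WT and 129, 357 and 188 in S80A at 3 hr, from 3 reads per group at 0 hr. The ratio of reads per size factor, 3 hr over 0 hr, was 20.3 in WT (95% counting interval 6.52 to 102.0) and 243 in S80A (82.6 to 1180.1). The S80A replicates at 3 hr were all above the WT replicates (3.59 ± 0.41 log2, limma adjusted p = 0.00148), as for 35.7% of all listed genes. The LPS response of IRF4 was called larger in S80A (3.67 ± 0.82, adjusted p = 0.0271), a call that was lost with TMM scaling, by edgeR and DESeq2 and without WT replicate 1. STAT5A was higher in S80A at 3 hr (12718 ± 1248 against 6586 ± 144 scaled reads, SD, n = 3, limma adjusted p = 0.00656). Of the 3 genes, 2 were thus called higher at 3 hr, against 29.2% of all listed genes. For the LPS response 1 of 3 was called, against 4.48% of the genes in both tables.

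Of 17 genes of the TLR4 to IFNB1 arm, 8 were listed in both tables, with 7 rising and CD14 falling in each genotype. NFKB1 itself rose by 4.69 log2 in WT and 4.62 in S80A, TICAM1 by 2.62 and 2.27, and JUN by 2.44 and 1.38 in the authors' deposited tables. None of the 8 was called for the LPS response (2 had an unadjusted limma p under 0.05; edgeR called 0, DESeq2 1 and the fit lacking S80A replicate 1 called 1) or at 3 hr (3 with an unadjusted p under 0.05; edgeR called 2 higher, DESeq2 3, and the limma fit lacking S80A replicate 1 called 2). At 0 hr JUN (1.71 ± 0.20 log2, adjusted p = 0.00482) and IKBKE (0.88 ± 0.24, 0.0413) were higher in S80A, 2 of 8 against 20.1% of all listed genes. Of the 8, 1 gene was called without WT replicate 1 or with TMM scaling.

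Brakes on interferon signalling numbered 9 listed of 11, and 4 of the 9 were lower in S80A at 3 hr, against 17.7% of all, with 2 called without WT replicate 1, 2 with the replicate number as a block and 6 with TMM scaling. The 4 were the cytokine-signalling suppressors SOCS1 (-0.93 ± 0.26 log2, limma adjusted p = 0.0243) and CISH (-1.71 ± 0.34, 0.00739) and the phosphatases PTPN1 (-0.89 ± 0.30, 0.0446) and PTPN6 (-2.10 ± 0.20, 0.00095). PTPN6 had 1516, 1580.0 and 1577 scaled reads in WT and 439.5, 332 and 329 in S80A. It was listed in S80A only, where it fell with LPS, which favours a low S80A level at 3 hr. USP18, which blocks signalling at IFNAR2, had a mean of 1524 in WT and 854 in S80A at 3 hr (-0.87 ± 0.34, adjusted p = 0.0771). At 0 hr CISH was lower (-2.74 ± 0.51, 0.0156) and SOCS3 higher in S80A (0.91 ± 0.19, 0.0200), each 1 of 9, against 10.6% and 20.1% of all. The first call was lost without WT replicate 1 and the second with TMM scaling. CISH was also listed in S80A only, where it rose with LPS, which favours a low S80A level at 0 hr. For the LPS response, 0 of the 7 brakes in both tables were called by limma or edgeR, 1 by DESeq2 and 2, both lower in S80A, by limma without S80A replicate 1, with 1 limma p under 0.05 before adjustment.

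Genes classically induced through ISGF3 numbered 30 listed of 36, of which 28 rose in WT and 30 in S80A in the authors' deposited tables. IFIT2 rose by 6.19 and 6.79 log2, OASL by 5.45 and 6.61, ISG20 by 5.32 and 4.83 and IFIT3 by 4.72 and 5.26. At 0 hr 27 of the 30 stood below 0 in the difference of S80A minus WT, with a median of -0.75 log2, against 39.8% and a median of 0.19 over all listed genes. At 3 hr 27 of 30 were again below 0, with a median of -0.50, against 43.0% and 0.19. Few of these differences passed the test. At 0 hr 2 of 30 were called lower, MX1 and HERC5, against 10.6% of all listed genes. At 3 hr 2 of 30 were called lower, MX1 and ISG15, against 17.7%. MX1, an antiviral GTPase, had 729, 2881 and 1329 scaled reads in WT and 172, 327 and 73.5 in S80A at 0 hr, and 11565, 18663 and 15893 against 2827, 3700.3 and 1507 at 3 hr. Every WT replicate was above every S80A replicate at both times (-3.12 ± 0.73 log2, limma adjusted p = 0.0286, and -2.59 ± 0.37, 0.00247). The same held for 17.5% of all listed genes at 0 hr and for 23.3% at 3 hr. HERC5, a ligase of ISG15, differed by -1.71 ± 0.30 at 0 hr (adjusted p = 0.0133), and the ubiquitin-like ISG15 by -0.98 ± 0.33 at 3 hr (0.0454). Other settings called more of them lower at 0 hr: 6 with the replicate number as a block, 4 with TMM scaling, 7 by edgeR and 10 by DESeq2, but 1 without S80A replicate 1. At 3 hr TMM scaling and DESeq2 each called 8, edgeR 3, the fit without S80A replicate 1 called 4 and that with the replicate number as a block 1. None of the 28 targets in both tables was called for the LPS response by limma, edgeR or DESeq2, and 0 had an unadjusted limma p under 0.05. These differences had a median of 0.22 log2.

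Genes of the kind classically induced through IRF1 numbered 14 listed of 20, with median rises of 5.01 log2 in WT (14 genes) and 5.00 in S80A (12 genes) in the authors' deposited tables. IDO1, which degrades tryptophan, rose by 9.26 and 10.05 log2, and the chemokine genes CXCL9, CXCL10 and CXCL11 by 8.28 and 7.48, 8.16 and 8.41, and 7.84 and 7.66. At 0 hr GBP2, GBP3, GBP4 and CASP4 were higher in S80A, 4 of 14 against 20.1% of all listed genes, and without WT replicate 1 only 2 were called higher. CASP4 was listed in WT only, where it rose with LPS, which favours a low WT level at 0 hr. GBP5 and, from few reads, IDO1 were lower in S80A, 2 of 14 against 10.6% of all. IDO1 was called lower by limma at 0 hr from 5 reads in WT against 0 in S80A, a ratio with a 95% counting interval of 0 to 1.22 that includes no difference, and edgeR and DESeq2 each called 1 gene of the list lower. At 3 hr GBP2 was higher (1.07 ± 0.24 log2, limma adjusted p = 0.0122) and GBP5 lower (-3.28 ± 0.40, 0.00167), each 1 of 14, against 29.2% and 17.7% of all. GBP5, a guanylate-binding protein, had 3198, 6918 and 5465 scaled reads in WT and 598, 687 and 323 in S80A at 3 hr. For the LPS response, 0 of the 12 in both tables were called by limma or edgeR, and 1 each by DESeq2, by limma without S80A replicate 1 and with the replicate number as a block, with 1 limma p under 0.05 before adjustment.

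Of 8 genes grouped here as partners of IRF8 in myeloid cells, 7 were listed. Whether their products bind with IRF8 in these cells was not measured. CEBPA (-1.01 ± 0.25 log2, limma adjusted p = 0.0326), BATF3 (-2.53 ± 0.32, 0.00593) and IKZF1 (-1.09 ± 0.14, 0.00602) were lower in S80A at 0 hr, while KLF4 was higher (1.32 ± 0.12, 0.00359). These were 3 of 7 lower, against 10.6% of all listed genes, and 1 of 7 higher, against 20.1%. Without WT replicate 1, and with the replicate number as a block, 2 were called lower. KLF4 was listed in S80A only, where it fell with LPS, which favours a high S80A level at 0 hr. BATF, BATF2 and CEBPB were not called at either time, and their replicates overlapped between genotypes. At 0 hr their S80A means were 0.851, 1.10 and 2.06 times the WT means. CEBPB was listed in WT only, where it rose with LPS, which favours a low WT level at 0 hr. BATF3 had 52.8, 108 and 80.7 scaled reads in WT and 14.9, 14.0 and 9.45 in S80A. IKZF1 (Ikaros) had 2416, 2280.2 and 2485 in WT and 1305, 1009 and 1069 in S80A at 0 hr, and 8417, 10664 and 10183 against 10827, 13692 and 11852 at 3 hr. The LPS response of IKZF1 was larger in S80A by 1.41 ± 0.27 log2 (limma adjusted p = 0.0136), a call lost without WT replicate 1. At 3 hr CEBPA (-1.10 ± 0.20, 0.00476) and BATF3 (-1.75 ± 0.59, 0.0471) were lower, 2 of 7 against 17.7% of all, and 1 of the 7 was without S80A replicate 1.

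**Figure D4:**
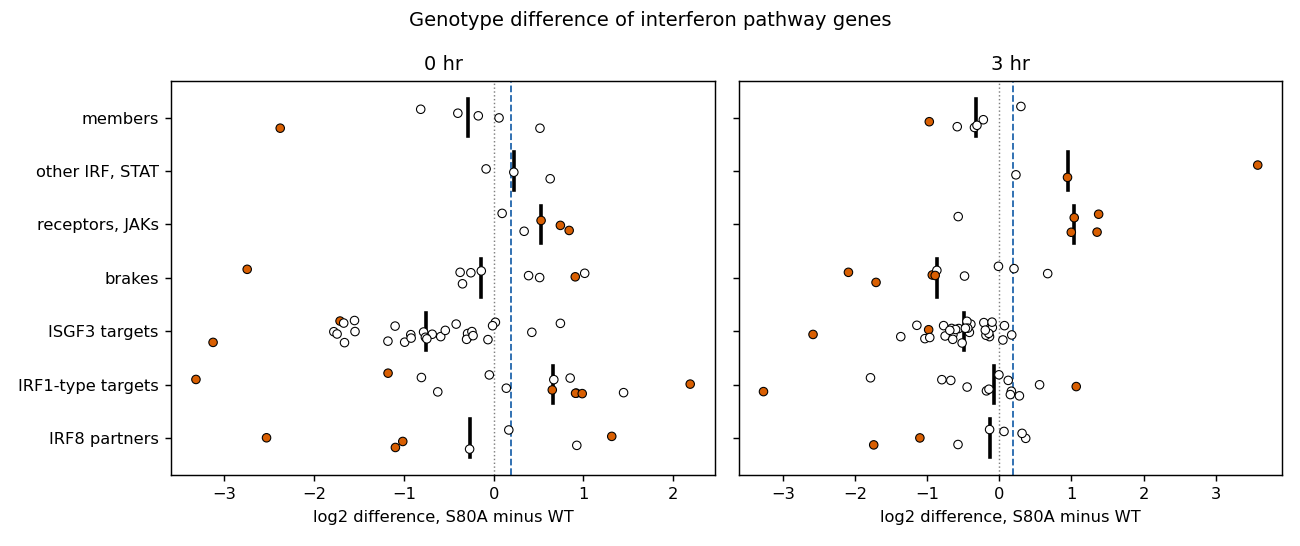
Differences of S80A minus WT in log2(scaled reads + 1) at 0 hr and 3 hr for the listed genes of 7 groups. Each point is a gene (filled points have a limma adjusted p under 0.05), black bars are group medians and the dashed line is the median of all listed genes (0.19). ISGF3 targets lie mostly below 0, with medians of -0.75 and -0.50, and 4 of 5 receptor and Janus kinase genes are called higher at 3 hr. Of the 4, IFNAR2 and JAK1 were listed in S80A only, which favours such a difference.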

How the data were processed

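RNA-seq of 12 THP-1 libraries was used. Libraries were stranded and poly(A)-selected, per the labels' protocols. Tools in the submitters' processing notes are HISAT, HTSeq, DESeq2, StringTie, Cuffdiff and FastQC, with build GRCh38. The strand setting of the counting is not given in the sources used here. Each of the 2 deposited tables, 1 per genotype, holds for each gene a log2 fold change of LPS-treated over untreated cells and a p-value, raw and adjusted, all computed by the authors, and a signal for every library. As the values show, the deposited signal of a gene is its read count over a size factor of the library (0.834 to 1.29), and whole reads were recovered for 100% of values to within 0.01 reads. The tables hold 2335 and 2508 genes, 1562 of them shared, with adjusted p-values under 0.01 and changes over 1 log2. Their p-values imply 17486 tested genes each. Other genes were not analysed here. The result of 1 further gene is not reported here.

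The members and gene lists were chosen with earlier results of these data known. Differences were tested with limma 3.58.1 (R 4.3.3) on log2(scaled reads + 1) with Benjamini-Hochberg adjustment over all genes fitted: the 6 libraries of a time or genotype over 3281 genes, and the interaction of all 12 libraries over 1562. A difference is called at an adjusted p under 0.05. On this scale changes of genes with few reads are understated. Alternatives used edgeR 4.0.16, DESeq2 1.42.0, TMM scaling, pseudocounts of 0.5 and 10, a minimum mean of 10, the replicate number as a block and leaving out libraries. Tests were checked on simulated data with the same setting of spread for every gene and independent libraries. That check does not cover outlying or paired libraries such as these. Ratios from 1 to 3 reads have exact 95% counting intervals, which cover counting error only.

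Named genes are the members, the 3 genes most like each, up to 4 of each list by WT response and those called for the LPS response. AL136295.5, AC116366.3, C5orf56, IFNAR2, JAK1, CISH, PTPN6, MX1, HERC5, ISG15, GBP2, GBP3, GBP4, GBP5, CASP4, BATF3, CEBPA and KLF4 fall outside this rule and were chosen after seeing their values. Same-numbered replicates deviated together from their group means in the 0 hr comparison (correlations across genes of 0.20 to 0.27) and between the 2 times of WT (0.17 to 0.38) and of S80A (0.21 to 0.34). Sequences are from RefSeq (GRCh38.p14), whose promoter table held 5 of the 6 members, and positions from GENCODE release 29.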

Additional observations from a re-analysis of the deposited data

Results flagged for a closer look

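The LPS response of IRF8 differed between the genotypes by 2.03 log2 (S80A minus WT, SE 0.54, limma adjusted p = 0.0307 over all 3281 listed genes), by a test of the difference itself. IRF8 rose from 4934 to 7394 scaled reads in WT and from 1113 to 5830 in S80A, so the difference lay mainly in the level before LPS. The gene was listed by the authors in S80A only, which favours such a difference.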

How the results depend on the processing

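No call of a member depended on the pseudocount, the low-value filter, TMM scaling, edgeR or DESeq2. The LPS response differed for 70 genes, and for 124 with a pseudocount of 10, 153 by DESeq2, 187 without S80A replicate 1 and 464 over all genes in either table, and the cause was not tested. Leaving out 1 library gave 36 to 123 genes and 0 of 5 members. At 0 hr it gave 497 to 1200 genes (1007 with all libraries) and 0 to 1 members, and at 3 hr 1055 to 1788 genes (1541) and 0 to 1 members. No member was called at 3 hr (0 in place of 1) without S80A replicate 1 or in a fit of all 12 libraries, which uses a pooled spread. The LPS response was called for 2845 to 2968 genes in WT and 2497 to 2690 in S80A, and for 6 of 6 members each. Without S80A replicate 1 the difference of IRF9 in the LPS response turned to -0.034 log2 (adjusted p = 0.977). With single libraries left out, this difference spanned -0.69 to 0.061 log2 for IFNB1, -0.52 to 0.058 for IRF1, -0.54 to 0.20 for IRF7 and -0.16 to 0.41 for IRF9. At 0 hr it spanned -0.28 to 0.35 for IFNB1 and -0.43 to 0.047 for STAT2, and at 3 hr -0.63 to 0.0043 for IFNB1.

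With the replicate number as a block, no member's call changed: IRF8 at 0 hr had an adjusted p of 0.0341, IRF7 at 3 hr 0.0387 and the LPS response of IRF8 0.0260, and 104 genes were called for the LPS response. In the 3 hr comparison the numbers paired in 2 of 3 cases by a correlation over 0.1. Counts of genes describe genes listed as LPS-responsive, and with 3 libraries per group the 95% intervals of the 5 members' response differences reach from -1.53 to 1.18 log2.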
